A study of Mus musculus with 15 samples.

Results

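Among the transcripts that earlier work has tied to the RNA-binding protein SAM68, 7 were examined here for the places where the protein was crosslinked to them in mouse stem cells and embryoid bodies. They are Bcl2l1, Cd44, Smn1, Mtor and Ccnd1, whose RNA processing has been reported to depend on SAM68, and Eef1a1 and Actb, reported as messenger RNAs it binds. They were chosen by name with earlier results of these data known, and all 7 are reported whatever their values. A site counted for a gene when the authors had assigned it to that gene's Ensembl ID. The 7 genes are among 7949 with a site in any list, and they hold 83 of the 132293 sites deposited.

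SAM68, the product of Khdrbs1, belongs to the STAR family of proteins, which bind short adenine- and uracil-rich motifs in RNA as dimers. In the nucleus it acts on splice site choice and on the use of polyadenylation signals inside introns, and in neurons and germ cells it has been tied to the transport and translation of messenger RNAs. Its effect on splicing changes with its phosphorylation by kinases of the Src and ERK pathways.

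SAM68 was recovered with an antibody from E14 cells, a mouse embryonic stem cell line, by iCLIP2, which reads the crosslinked nucleotide from the place where reverse transcription stops. On day 0 the cells were stem cells kept without feeders in serum, LIF and inhibitors of GSK and MEK. On day 3 they were embryoid bodies, clusters of differentiating cells, from hanging drops, and on day 10 embryoid bodies grown in spheroid plates from the start, so that day and culture format cannot be told apart. Bodies were broken into single cells before the ultraviolet light.

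Each day has 5 libraries by its labels, but 1 deposited list, of 29740 sites on day 0, 28266 on day 3 and 74287 on day 10. Every site is 5 nt wide. No values of single libraries are in the lists, so replicates could not be compared and no p-value was computed. A share is the number of sites in a gene per 10000 sites of that day's list, and 95% intervals cover counting error only. Sites of 1 gene share their RNA and are not replicates. The amount of each RNA was not used, so fewer bound cells, less RNA and less binding cannot be told apart. The day labels were checked on transcripts of named states. The stem cell genes Esrrb, Nanog, Zfp42 and Tfcp2l1 summed to 104, 6 and 1 sites across day 0, day 3 and day 10. The heart and endoderm genes Gata4, Gata6, Ttn and Slc8a1 summed to 0, 4 and 618.

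The 7 transcripts together held 21 sites on day 0, 12 on day 3 and 50 on day 10, or 7.06, 4.25 and 6.73 sites per 10000. Sites were listed in 5 of the 7 genes on day 0, in all 7 on day 3 and in 6 on day 10, and 5 genes (Bcl2l1, Eef1a1, Actb, Cd44 and Smn1) had sites on every day. For all 21900 RefSeq protein-coding genes, the share with a site was 20.6% on day 0, 20.7% on day 3, 26.4% on day 10 and 13.9% on every day. Since the 7 were chosen with earlier results known, these shares do not test whether reported targets are bound more often. The summed share on day 10 was 0.953 times that on day 0, with an interval of 0.562 to 1.67, and on day 3 it was 0.601 times that on day 0 (0.270 to 1.28). A gene was called at a larger or smaller share where the 95% interval of the ratio of shares excluded 1. Between day 10 and day 0, 0 of the 6 genes with a site were called, while 7.33% of all genes with a site were called larger and 10.5% smaller. Between day 3 and day 0, 0 of 7 were called, against a background of 3.84% larger and 4.3% smaller. Between day 10 and day 3, 1 of 7 was called larger, Bcl2l1, and 0 smaller, against 5.62% and 8.58% of all genes. With so few sites per gene these intervals are wide, and an interval that holds 1 does not show that binding was alike.

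**Figure D1:**
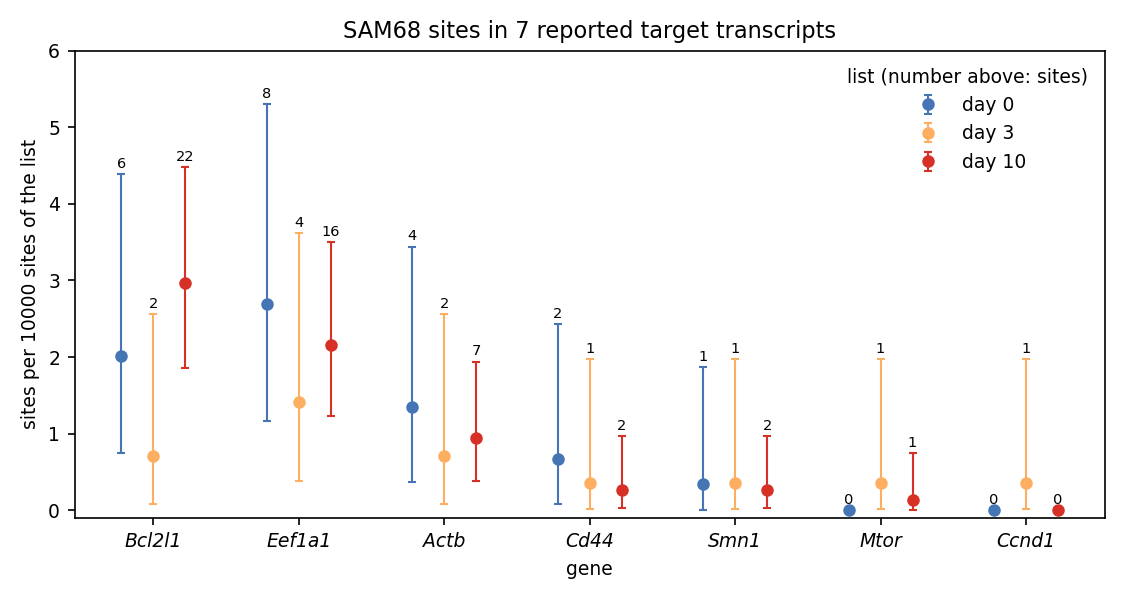
Sites per 10000 sites of the list (vertical axis) in each of the 7 genes, on day 0, day 3 and day 10. Points are shares, bars exact binomial 95% intervals where a gene has a site, and the number above each point is its count of sites. Bcl2l1 and Eef1a1 carry the most sites, and the intervals of the 3 days overlap within each gene.

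Bcl2l1 held the most sites of the 7, and in the lists of day 0 and day 3 its sites lay close together in 1 stretch. The gene encodes BCL-X, a regulator of apoptosis, whose long form protects cells and whose short form promotes death. SAM68 has been reported in human cells to favour the short form. The gene (ENSMUSG00000007659) lies on the minus strand of chromosome 2, and its RefSeq span in GRCm38.p6 is chr2:152758732-152833803, 75.1 kb. It held 6 sites on day 0, 2 on day 3 and 22 on day 10, or 2.02, 0.708 and 2.96 per 10000. The share was therefore highest on day 10 and lowest on day 3. Its day 10 share was 4.19 times that of day 3 (interval 1.03 to 36.7) and 1.47 times that of day 0 (0.577 to 4.43). The day 3 share was 0.351 times that of day 0 (0.0346 to 1.96). The call between day 10 and day 3 rests on 2 sites on day 3, and its lower bound lies just above 1: at a 99% interval it was open (0.764 to 86.2).

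All 8 Bcl2l1 sites of day 0 and day 3 lay between positions 152823154 and 152826388, a stretch of 3.24 kb that makes up 4.31% of the span. RefSeq lists 3 starts for the gene, at 152828489, 152830717 and 152831728, and the stretch lies 2.10 to 5.33 kb downstream of the nearest of them. On day 10, 9 of 22 sites lay in the same stretch to within 2 nt. A further 12 lay downstream of it and 1 upstream. The site nearest to a start was a day 10 site 628 nt downstream of it, and the farthest was 47.6 kb downstream, at 152780898 to 152780902. The sites of day 0 thus covered a range of 3.23 kb, those of day 3 0.700 kb and those of day 10 47.0 kb. None of the 30 sites lay within 5 kb of either end of the span, which includes model transcripts and so may reach beyond the usual ones. Positions of exons, the alternative splice site among them, were not used here.

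Some positions in Bcl2l1 recurred between days. The place at 152824754 to 152824761 held 1 site on each of the 3 days, shifted by 3 nt on day 3. A place at 152825454 to 152825459 held a site on day 0 and on day 3, 1 nt apart. The places at 152823154 to 152823169 and 152826384 to 152826390 held overlapping sites of day 0 and day 10. In the place at 152825266 to 152825298 the sites of day 0 and day 10 began 28 nt apart and did not overlap. Of its 23 places, 17 were in the day 10 list alone and 1 in the day 0 list alone.

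The site numbers in the files run in order of position on each strand of each chromosome, and some numbers are missing. They are read here as sites that were called but not listed. This reading was not tested. The file headers name a step that drops sites where genes overlap, and whether the missing numbers come from it was not tested. In Bcl2l1, 2 numbers were missing between its listed sites on day 0, 0 on day 3 and 12 on day 10. Of the 12, 8 fell between 152803792 and 152812111, and 1 in a gap of 6 nt at 152823158 to 152823165. Over all genes with at least 2 sites on a day, 40.7% of the numbers inside genes were missing on day 0, 44.6% on day 3 and 36.1% on day 10, and 75.1%, 75.2% and 77.9% of these genes had a missing number. The missing numbers were also counted as sites, an alternative chosen after seeing the data. Bcl2l1 then had 8 sites on day 0, 2 on day 3 and 34 on day 10. Its day 10 share was then 8.64 times that of day 3 (interval 2.21 to 74.2). Only numbers between the first and last listed site of a day enter this count. That range is 47.0 kb on day 10 and 0.700 kb on day 3, so the days are not counted alike. Whether the missing numbers belong to Bcl2l1 was not tested. In the other 6 genes the only missing number was 1 in Eef1a1 on day 0. A gene with fewer than 2 sites on a day cannot show one by this count, as for Mtor and Ccnd1 on every day.

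**Figure D2:**
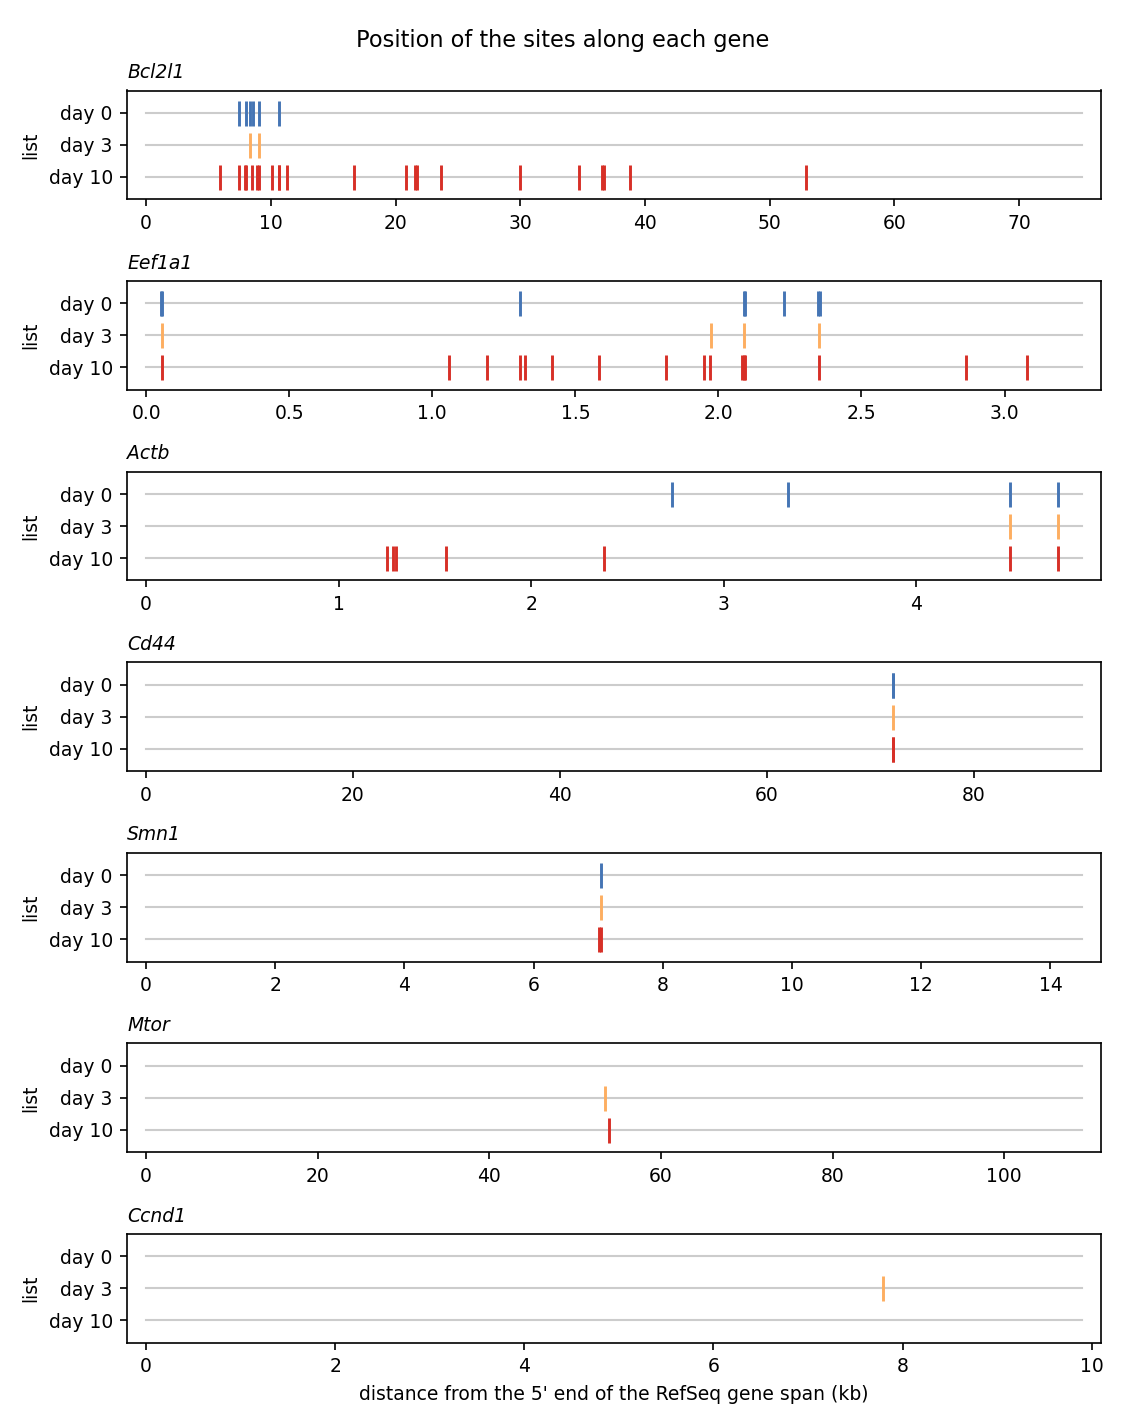
Each tick is a site, placed by its distance in kb from the 5′ end of the RefSeq gene span (horizontal axis), with day 0, day 3 and day 10 from top to bottom in each gene. The Bcl2l1 sites of day 0 and day 3 sit within 3.24 kb while those of day 10 cover 47.0 kb, and Cd44 and Smn1 are bound at 1 place on every day.

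Eef1a1 encodes elongation factor 1A, which brings aminoacyl-tRNA to the ribosome, and its messenger RNA has been reported as a SAM68 target in rodent neurons. The gene (ENSMUSG00000037742) lies on the minus strand at chr9:78478453-78481724, a span of only 3.27 kb. It held 8 sites on day 0, 4 on day 3 and 16 on day 10, or 2.69, 1.42 and 2.15 per 10000, and the share on day 10 was 0.801 times that on day 0 (0.323 to 2.16). Per kb of span it held 2.44 sites on day 0, 1.22 on day 3 and 4.89 on day 10. That placed it as number 9 of 4520 named protein-coding genes with a site on day 0, number 73 of 4535 on day 3 and number 4 of 5774 on day 10. The median gene had 0.0790, 0.0756 and 0.122 sites per kb on these days. Of 125 other bound genes whose span lay within 20% of that of Eef1a1, 0 held more sites on day 0, 18 on day 3 and 0 on day 10. The highest of these genes held 8 sites on day 0, as many as Eef1a1, and 15 on day 10. Other genes with spans up to 5 kb were also dense with sites. On day 0 Rpl17 held 14, and Rplp2, Rps12 and Rps2 8 each. On day 10 Tpt1 held 15, and Gapdh and Rpl17 13 each. The highest density per kb was in Rps21 on day 0, Mif on day 3 and Tmsb10 on day 10.

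A site at the very start of Eef1a1 was listed on all 3 days. Counted from the RefSeq start as base 1, the day 0 sites covered bases 50 to 54 and 56 to 60, the day 3 site bases 54 to 58 and the day 10 site bases 56 to 60. Sites so near a start are rare in the lists. Of all sites in named protein-coding genes, 0.248% on day 0, 0.390% on day 3 and 0.164% on day 10 lay within 100 nt of the start of the span. These shares are not matched for length. The genes with a site on day 0 had a median span of 40.1 kb, against 3.27 kb for Eef1a1, in which 100 nt is a larger part. The bases of the gene's strand that lead up to these sites are shown because they hold a TATA box sequence, an element that lies upstream of where transcription begins. They are bases 21 to 50 of the RefSeq gene, at chr9:78481675-78481704, read 5′ to 3′ on the minus strand from the RefSeq table of GRCm38.p6, with TATATAA in capitals.
Eef1a1: cggTATATAAgtgcggcagtcgccttggac
The match covers bases 24 to 30, downstream of the RefSeq start, and the sites of day 0 begin 26 and 32 bases after its first base. TATATAA was found on the gene's strand in 2.20% of 32851 RefSeq windows that run from 250 bases before to 50 bases after a start, and in 3.24% on either strand. It lay in the 50 bases after the start, as here, in 0.125% of windows. The exact letters held by Eef1a1 were counted, so these shares do not test whether the match is unusual. The letters TAAA and TTTA, short adenine- and uracil-rich runs that are reverse complements of each other, were not in the 50 bases after the Eef1a1 start. One or the other was in 18.3% of the windows of that length. The window ends at base 50, where the sites begin, so the sites and the bases after them were not searched. Whether such a run lies at these sites was therefore not tested. Whether the cDNAs behind these sites end at a crosslink or at the end of the RNA was not tested.

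The other Eef1a1 sites lay in the body and towards the 3′ end. A place at 78479629 to 78479643 held 2 sites on day 0, 1 on day 3 and 3 on day 10, set directly beside each other. The place at 78479368 to 78479377 held 2, 1 and 1 sites on the 3 days, 917 to 922 nt from the 3′ end. Together with the start, these 3 of its 13 places were bound on every day. The day 10 list alone held 7 places, among them those nearest to the 3′ end, 193 and 407 nt from it. No site of any day lay between 57 and 1057 nt from the 5′ end.

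Actb encodes beta-actin of the cytoskeleton, and its messenger RNA, which is carried to the cell edge and to synapses, has been reported as bound by SAM68 in mouse neurons. The gene (ENSMUSG00000029580) lies on the minus strand at chr5:142903115-142907976. It held 4 sites on day 0, 2 on day 3 and 7 on day 10, or 1.34, 0.708 and 0.942 per 10000. The ratio of day 10 to day 0 was 0.701 (0.178 to 3.26). With 0.823, 0.411 and 1.44 sites per kb it stood at percentile 97.2, 91.5 and 98.0 of bound genes on day 0, day 3 and day 10. Like Eef1a1 it is short, so that few sites give a high density.

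The 2 Actb sites nearest to the 3′ end were listed at identical positions on all 3 days. They lie at 142903241 to 142903245 and 142903487 to 142903491, 128 and 374 nt from the end of the span. These were also the only Actb sites of day 3. The other positions differed between days. The remaining day 0 sites lay 1526 and 2131 nt from the 3′ end, and the remaining 5 of day 10 lay 2482 to 3612 nt from it. Of these, 4 lay 1249 to 1556 nt from the 5′ end. Both recurring sites also fall in the RefSeq span of the non-coding gene Gm38733, whose strand the table does not give. Eef1a1 and Actb have processed copies elsewhere in the mouse genome, and reads that match both could be placed on either.

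Of the sites of the 7 genes, 9 of 21 on day 0, 5 of 12 on day 3 and 15 of 50 on day 10 lay within 2 kb of the 3′ end of the span, all in Eef1a1 or Actb. These shares of 42.9%, 41.7% and 30.0% compare with 9.09%, 9.92% and 7.05% over all named protein-coding genes. Since both genes are shorter than 5 kb, most of their length lies within 2 kb of an end. The single Ccnd1 site lay just outside, 2107 nt from the 3′ end. The Bcl2l1 span may reach beyond the usual transcripts, so a site near their 3′ end would not be counted here.

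**Figure D3:**
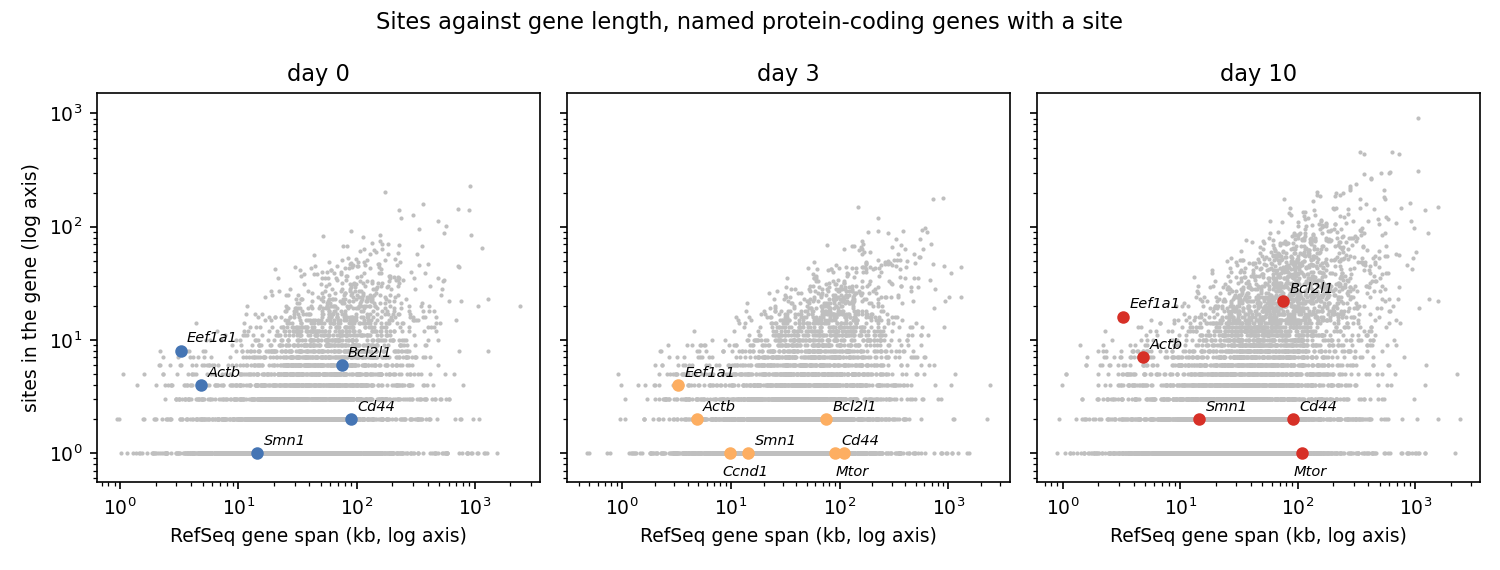
Sites in a gene (vertical, log axis) against RefSeq gene span in kb (horizontal, log axis) for named protein-coding genes with a site, in 1 panel per day. Grey points are all such genes and coloured points the 7 transcripts. Eef1a1 sits at the upper edge for its length on day 0 and day 10, with 8 and 16 sites, and the longer Cd44 and Mtor sit at 1 or 2 sites wherever they are listed.

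Cd44 encodes the main cell-surface receptor for hyaluronan, and a block of variable exons gives its many isoforms. Inclusion of such an exon has been reported to depend on SAM68 after ERK signalling. The gene (ENSMUSG00000005087) lies on the minus strand at chr2:102811141-102901669, 90.5 kb. It held 2 sites on day 0, 1 on day 3 and 2 on day 10, or 0.672, 0.354 and 0.269 per 10000, with a day 10 to day 0 ratio of 0.400 (0.0290 to 5.52). All 5 sites lay in 1 place of 20 nt, at 102829445 to 102829464, 72.2 kb from the 5′ end and 18.3 kb from the 3′ end. One site of day 0 and one of day 10 were at identical positions there. Of 764 bound genes with spans within 20% of that of Cd44, 45.3% held more sites on day 0, 54.7% on day 3 and 69.1% on day 10.

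Smn1 encodes the survival motor neuron protein, which assembles spliceosomal ribonucleoproteins. In the human paralog SMN2, skipping of an exon near the 3′ end has been reported to depend on SAM68. The mouse gene (ENSMUSG00000021645) lies on the plus strand at chr13:100123205-100137699. It held 1 site on day 0, 1 on day 3 and 2 on day 10. The sites of day 0 and day 3 were at identical positions, 100130239 to 100130243, and a day 10 site was shifted from them by 1 nt. The other day 10 site began 23 nt upstream. All lay 7013 to 7037 nt from the 5′ end, at 48.5% of the span, and none lay within 5 kb of the 3′ end. The share per 10000 was 0.336, 0.354 and 0.269 on day 0, day 3 and day 10, and the ratio of day 10 to day 0 was 0.801 (0.0417 to 47.2).

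Sites confined to 1 place on all 3 days, as in Cd44 and Smn1, were found in 57 of the 3037 named protein-coding genes with sites on every day, or 1.88%. Among the 7 transcripts, 5 had sites on every day, and each of these 5 had at least 1 place bound on all of them. In the lists as a whole 53.7% of such genes had one. Neither share is matched for the number of sites. The 3037 genes include some with many sites, which are less easily confined to 1 place than the few of Cd44 and Smn1.

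Mtor encodes the kinase at the centre of the mTOR complexes, and retention of an early intron in its transcript has been reported in mouse cells that lack SAM68. The gene (ENSMUSG00000028991) lies on the plus strand at chr4:148448582-148557685, at 109 kb the longest of the 7. It held no site on day 0, 1 on day 3 and 1 on day 10. The day 3 site at 148502065 to 148502069 and the day 10 site at 148502465 to 148502469 were 400 nt apart, 53.5 and 53.9 kb from the 5′ end, near the middle of the gene. Of 688 bound genes of similar span, 68.3% held more sites on day 0, 56.1% on day 3 and 75.1% on day 10. Whether the sites lie in introns or exons was not examined here.

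Ccnd1 encodes cyclin D1, which drives entry into the cell cycle with CDK4 and CDK6. In human cells SAM68 has been reported to favour a shorter transcript that keeps part of an intron. The mouse gene (ENSMUSG00000070348) lies on the minus strand at chr7:144929931-144939831. It held 1 site, on day 3, at 144932036 to 144932040, 7793 nt from the 5′ end or 78.7% of the span. No site was listed on day 0 or day 10.

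By the number of sites on all days the order was Bcl2l1 with 30, Eef1a1 with 28, Actb with 13, Cd44 with 5, Smn1 with 4, Mtor with 2 and Ccnd1 with 1. Per kb of span on day 10 it was Eef1a1, Actb, Bcl2l1 with 0.293, Smn1 with 0.138, Cd44 with 0.0221 and Mtor with 0.00917.

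Positions in these transcripts recurred between days. Of the 21 sites of day 0, 11 overlapped a site of day 3 and 14 a site of day 10. The shares, 52.4% and 66.7%, compare with 17.4% and 24.1% for all sites of day 0. Of the 12 sites of day 3, 9 overlapped a site of day 0 and 9 a site of day 10, or 75.0% each, against 18.3% and 25.9% of all day 3 sites. Of the 50 sites of day 10, 13 overlapped day 0 and 9 overlapped day 3, or 26.0% and 18.0%, against 9.68% and 9.90% of all. The lists share no libraries, but each position comes from 1 list per day, and 36 of the 50 day 10 sites were in that list alone. Eef1a1 is dense with sites, so overlaps are more easily met there than in a long gene. At the level of places, 8 of 49 were bound on all 3 days, 6 on 2 days and 35 on 1 day, 29 of these on day 10. Of the 8, 3 lay in Eef1a1 and 2 in Actb. In the lists as a whole 3.19% of 107900 places were bound on all 3 days. The shares over all sites and places take in genes with no site on the other days. Of all genes in the lists 41.4% had sites on every day, against 5 of the 7, which were chosen with earlier results known. Whether positions recur more in these transcripts than in genes bound alike was therefore not tested.

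**Figure D4:**
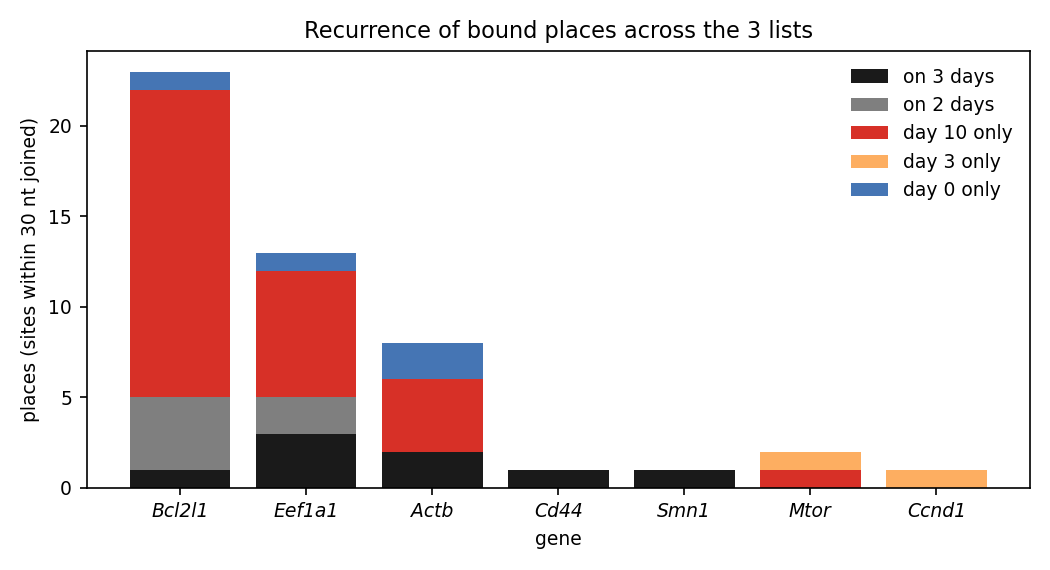
Places in each of the 7 genes (vertical axis, sites with centres up to 30 nt apart joined), split by the days on which they were listed. Bcl2l1 has 17 of its 23 places on day 10 alone, and the only place of Cd44 and of Smn1 is bound on 3 days.

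Genes with daily shares most like those of the 4 better covered transcripts were found by the summed difference of their 3 shares per 10000. Nearest to Bcl2l1 were Agrn, Lonp2 and Mical3, at distances of 0.488, 0.605 and 0.673. Agrn held 6, 3 and 23 sites across day 0, day 3 and day 10. Nearest to Eef1a1 were Pign (0.269), Scfd1 (0.404) and Ddx5 (0.471). Pign held 8, 4 and 14 sites over a span of 145 kb, while Ddx5 has a span of 8.83 kb. Macroh2a1 held the same numbers as Actb on each day, and Cenph was at a distance of 0.135. For Cd44, 25 genes had the same numbers, and Wars2, Prdm2 and Trim30a were nearest in span.

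The genes around these transcripts were described from lists of family members and partners. Their counts stand beside 32.2% of all RefSeq protein-coding genes with a site on some day, and beside the shares of all genes called, given above and repeated where genes were called. Of 12 genes of the mTOR pathway, 8 had a site, and several held far more than Mtor. Rictor, the defining subunit of mTOR complex 2, held 7, 17 and 35 sites across day 0, day 3 and day 10. Rheb, the small GTPase that switches mTOR complex 1 on, held 9, 9 and 18, and Rps6kb1, the S6 kinase, 2, 10 and 19. In day 3 against day 0, 2 of 7 were called at a larger share, Rictor and Rps6kb1, and 0 at a smaller share, against 3.84% and 4.3% of all genes. The interval of the ratio was 1.01 to 7.29 for Rictor and 1.12 to 49.4 for Rps6kb1, which had 2 sites on day 0. In day 10 against day 0, Deptor, an inhibitor of mTOR, was called smaller, with 0 sites on day 10 and 8 on day 0, and none of the 8 larger (10.5% and 7.33% of all genes). In day 10 against day 3, Deptor was again called smaller, with 0 and 17 sites, and none of the 8 larger (8.58% and 5.62% of all genes).

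**Figure D5:**
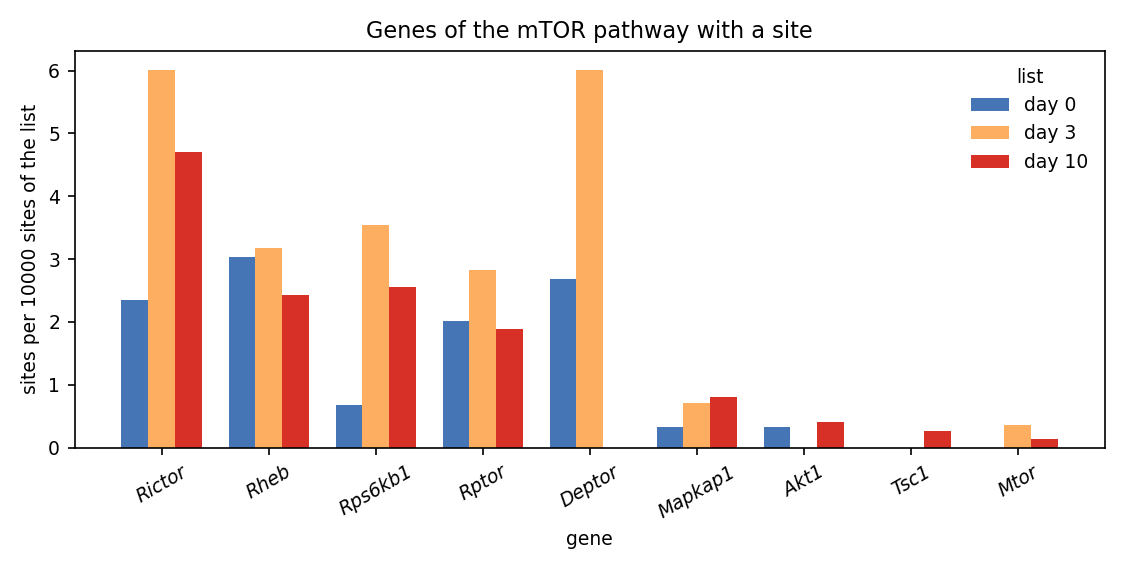
Sites per 10000 sites of the list (vertical axis, bars from 0) in genes of the mTOR pathway with a site, with Mtor at the right, on day 0, day 3 and day 10. Rictor and Rps6kb1 are higher on day 3 than on day 0, Deptor has no bar on day 10, and Mtor holds 1 site on day 3 and 1 on day 10.

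In the BCL2 family 7 of 10 genes had a site, and none was called in any comparison, where 3.84% to 10.5% of all genes were called in each direction. Mcl1, a protector from apoptosis, held 6, 5 and 12 sites across day 0, day 3 and day 10, Bcl2l11, which encodes the death promoter BIM, 0, 1 and 8, and Bcl2l2, a relative of Bcl2l1 that protects cells, 3, 0 and 4. Their median on day 10 was 3 sites and on day 0 1, the same as for the 7451 genes with a site on either day. The elongation factor list had sites in 5 of 7 genes. Eef1g, a subunit of the exchange factor for elongation factor 1A, held 14, 16 and 11 sites and was called smaller on day 10 against both earlier days (10.5% of all genes against day 0 and 8.58% against day 3). Eef2 held 1, 6 and 10 and Eef1b2 4, 6 and 4.

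Actins and actin-binding genes had sites in 11 of 12. Igf2bp1, which encodes the protein that binds the localisation element of the Actb messenger RNA, held 20, 16 and 43 sites across day 0, day 3 and day 10. The actin cross-linkers Actn1 and Actn4 held 13, 4 and 42 and 6, 9 and 32. Of the 11, Actn1 was called larger on day 10 against day 3, as were 5.62% of all genes. Actg1, the other cytoplasmic actin, held 0, 1 and 3. All 7 genes in the list of CD44 partners and the hyaluronan system had a site. Epb41l3, a membrane-cytoskeleton linker, held 0, 0 and 79 sites and Rdx, which encodes radixin, a linker of membrane proteins such as CD44 to actin, 8, 5 and 47. Of the 7, both were called larger on day 10 against each earlier day (7.33% of all genes against day 0 and 5.62% against day 3), and Hmmr, a hyaluronan receptor, held 1, 4 and 8.

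Of 9 genes of the SMN complex, 3 had a site on some day. Ddx20, its helicase, held 2, 4 and 0 sites across day 0, day 3 and day 10 and was called smaller on day 10 against day 3 (8.58% of all genes), while Gemin2 held 1, 0 and 1 and Gemin5 1, 1 and 0. Of 10 genes for G1 cyclins and their kinases, 7 had a site. Cdkn1b, an inhibitor of these kinases, held 6, 4 and 11, Cdk6 5, 7 and 3 and Cdkn1a 0, 5 and 7. Cdk6 was called smaller on day 10 against day 3 (8.58% of all genes). Ccnd2, a close relative of Ccnd1, held 8 sites on day 10 alone.

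Of 12 further transcripts reported as SAM68 targets, 5 had a site. Sgce, which encodes epsilon-sarcoglycan and has an exon reported to respond to SAM68 in mouse neural cells, held 0, 1 and 52 sites across day 0, day 3 and day 10 and was called larger on day 10 against both (7.33% of all genes against day 0 and 5.62% against day 3). Hnrnpa2b1, an hnRNP protein gene, held 10, 9 and 15, and Rps6kb1 2, 10 and 19. Mapt, which encodes tau, held 3, 0 and 0 and was called smaller on day 10 against day 0 (10.5% of all genes). In the list of SAM68 relatives and partners, all 6 genes had a site on some day. Khdrbs1 itself held 5, 12 and 48 sites and was called larger on day 10 against day 0 (7.33% of all genes), while Qk, another STAR gene, held 81, 28 and 125. Qk was called smaller on day 3 and on day 10 against day 0 (4.3% and 10.5% of all genes), and larger on day 10 against day 3 (5.62%). In that last comparison 1 other gene of the list was called smaller (8.58% of all genes). Hnrnpa1, whose product acts with SAM68 on the BCL-X transcript in human cells, held 2, 7 and 8.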

How the data were processed

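Binding of SAM68 was measured by iCLIP2 in 15 libraries, 5 per day. Per the file headers, each deposited site was given to a gene, and sites where genes overlap were dropped. The score in the files the authors deposited is 0 for every site and was not used. STAR 2.7.11a, SAMtools 1.22.1, UMI-tools 1.1.6 and bedtools 2.31.1 stand in the submitters' processing notes beside FastQC 0.12.1 and MultiQC 1.31, with no role for any, and GRCh38.p14 stands there as a build besides GRCm38.p5. How sites were called, whether they had to agree between replicates and how reads with several matches were placed is not given in the sources used here. Crosslink counts are not part of these lists, so depth is unknown and days could not be tested against each other.

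Ensembl IDs were named by position from the RefSeq gene table of GRCm38.p6, where 1 protein-coding span held at least 80% of an ID's sites. This named 7060 of 7380 protein-coding IDs, all 7 genes described here among them. Ratios of shares have exact conditional binomial 95% intervals for counting error only. Sites shared between days overlap by at least 1 nt on the same strand, and a place joins sites with centres up to 30 nt apart. Distances are to the centre of a site. The interval step was tested on simulated data with independent counts. Changes were planted there only in genes with more sites than most of the 7 hold, so finding a change in genes with few sites was not tested. The 7 genes and the comparison lists were chosen with earlier results of these data known. From each list, up to 3 genes with most sites over the 3 days were named, and for each of the 7 genes with at least 5 sites the 3 genes nearest in shares, with ties broken by span. Some genes of the lists and of the nearest genes are not reported here. Names beyond this rule were chosen after their values were seen. Alternatives covered the scale, the unit counted, the interval, the overlap and the size of the end zones. Python 3.11.15, NumPy 2.4.6, pandas 2.3.3, SciPy 1.17.1 and matplotlib 3.10.9 were used.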

Additional observations from a re-analysis of the deposited data

How the results depend on the processing

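No paired analysis was possible because the deposited lists hold no values for single libraries, and for the same reason no replicate could be left out. Sites per kb of exon were not computed, since exon positions were not used here. Of 96 ratios of shares of single genes recomputed under other settings, 95 kept their call. The 1 that did not was Bcl2l1 between day 10 and day 3, open at a 99% interval (ratio 4.19). So 0 of the 7 genes were then called larger there. All ratios but that of Bcl2l1 between these days were open in the main setting, with wide intervals, so a kept call shows little. Some ratios crossed 1, as for Eef1a1 in day 10 against day 0 (0.787 to 1.05). The scale set by genes with sites on all 3 days put day 10 at 1.91 times day 0, where list length gives 2.50. At a 99% interval, smaller shares were called in 455 genes (day 10 against day 0), 330 (day 10 against day 3) and 163 (day 3 against day 0), and larger ones in 139 (day 3 against day 0). With at least 10 sites over both lists, 458 genes (day 10 against day 0) and 361 (day 10 against day 3) held smaller shares. Counted only at identical positions, sites found on another day numbered 9, 4 and 8 on day 0, day 3 and day 10, and 3 on each day were found on all 3. Within 1 kb of the 3′ end lay 4, 3 and 5 sites of the 3 days, and within 5 kb 23 of day 10. Near the 5′ end, 1 site of day 3 and 1 of day 10 lay within 1 kb, and 12, 6 and 23 sites of the 3 days within 5 kb. The 5 kb zones hold the whole of Eef1a1 and Actb. Depth is unknown, and genes with 1 or 2 sites on a day have intervals too wide to show a difference.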
